A study of Mus musculus with 19 samples.

Results

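Transcripts of 8 genes of iron handling were followed in the cerebral cortex of mice given the sleep drug lemborexant or its vehicle. The genes were Fth1, Ftl1, Tfrc, Trf, Hmox1, Slc40a1, Cp and Slc11a2, taken by name and matched to their Ensembl identifiers, and all 8 were found among the 55487 genes of each deposited table and passed the expression filter. Every library came from the cortex of a male P301S/E4 mouse aged 41 weeks, so both groups carried the P301S tau mutation of frontotemporal dementia together with the E4 form of apolipoprotein E. The labels give neither the promoter of the tau transgene nor the strain background, and they hold no group without the mutation. Lemborexant, an antagonist of both orexin receptors, was gavaged once a day at 30 mg/kg and zeitgeber time 13 from 7.5 to 9.5 months of age (10 libraries), and control mice had 0.5% methylcellulose on the same schedule (9 libraries).

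Cells store iron in ferritin, a protein shell built from heavy chains (Fth1) and light chains (Ftl1). Iron enters on transferrin (Trf) through the transferrin receptor (Tfrc), crosses the endosomal membrane through the transporter DMT1 (Slc11a2), leaves through ferroportin (Slc40a1) with the ferroxidase ceruloplasmin (Cp), and is set free from heme by heme oxygenase 1 (Hmox1). When iron is scarce, iron regulatory proteins bind a hairpin called the iron-responsive element: in a 5′ UTR this blocks translation, and in the 3′ UTR of Tfrc it protects the mRNA. In the brain, oligodendrocytes are the main makers of transferrin, and microglia are rich in ferritin.

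The hairpin letters were looked for in the members' UTRs, since they join the storage, uptake and export genes described here. The search took the sense strand of annotated UTRs (GENCODE, GRCm38) for CNNNNNCAGTGN followed by 5 bases that pair with the 5 bases before the loop, G-T pairs allowed. Of 21179 protein-coding genes with a UTR, 160 (0.755%) held such a stretch, and of the 8 members Fth1, Ftl1, Slc40a1 and Tfrc did. The sites are printed 5′ to 3′ on the gene's strand, with the 6 loop bases in capitals. Those of Fth1 (chr19:9982738-9982754, plus strand), Ftl1 (chr7:45459785-45459801, minus strand) and Slc40a1 (chr1:45925471-45925487, minus strand) lie in 5′ UTRs. The 4 of Tfrc lie on the plus strand of its 3′ UTR, at chr16:32631225-32631241, chr16:32631604-32631620, chr16:32631669-32631685 and chr16:32631716-32631732, in the order printed.
Fth1: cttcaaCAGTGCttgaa
Ftl1: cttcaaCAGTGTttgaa
Slc40a1: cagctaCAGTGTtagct
Tfrc, site 1: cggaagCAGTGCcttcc
Tfrc, site 2: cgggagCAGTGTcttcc
Tfrc, site 3: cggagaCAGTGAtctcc
Tfrc, site 4: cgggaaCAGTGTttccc
The Fth1 and Ftl1 sites share both stem arms letter for letter and differ in the last loop base. The Tfrc sites have other stems around the same CAGTG core. These letters were not in the annotated UTRs of Trf, Hmox1, Cp or Slc11a2. The search asked for 5 unbroken pairs, so a hairpin with a mismatch or a further bulge in its stem would be missed. Its result is therefore not a full count of iron-responsive elements, for Tfrc as for the members without a match. Such sites act on translation and mRNA stability, so the RNA levels below are not protein levels.

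Depth ran from 20185098 to 31795633 estimated reads per library. Some libraries stood apart. The counts of lemborexant 1 and 10, lemborexant 3 and 8, and lemborexant 4 and 9 were nearly alike: a chi-square of counts per degree of freedom was 3.08 to 3.66 within these 3 pairs and 12.2 to 274 in the 168 other pairs of libraries. Each such pair may be a repeat of 1 RNA, which would leave 7 distinct lemborexant samples, so an n of 10 counts libraries. Lemborexant 1 and 10 and vehicle 1 and 4 had almost no Cst7. Vehicle 7 held hepatocyte transcripts, with 1698 CPM (read counts scaled to the same total in every library) summed over a list of liver markers against at most 48.3 CPM elsewhere, and lemborexant 7 held 2852 CPM of thalamic and hypothalamic markers against at most 316 CPM elsewhere. None of 10 neuron markers was at 0 in all libraries, and their sum was 3487 to 9521 CPM in lemborexant and 3996 to 8992 CPM in vehicle libraries. Whether the libraries come from separate mice is not stated in the labels, and p-values here measure their spread, which may be technical. In this bulk tissue, fewer cells of a type and less RNA per cell cannot be told apart.

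Per length, Fth1 was far above every other member. Deposited TPM values, which divide reads by gene length, put the medians over 19 libraries in the order Fth1 (15035 TPM), Ftl1 (1696 TPM), Trf (958 TPM), Hmox1 (23.4 TPM), Slc11a2 (16.3 TPM), Tfrc (12.8 TPM), Cp (12.8 TPM) and Slc40a1 (11.3 TPM). The lowest Fth1 value, 9762 TPM, was above the highest Ftl1 value, 3794 TPM, and the lowest Trf value, 269 TPM, was above the highest Hmox1 value, 40.0 TPM. Ftl1 was above Trf in 19 of 19 libraries although their ranges overlapped, by little in some (1333 against 1198 TPM in lemborexant 3). The 5 lower genes were not well separated: Hmox1 was above Slc11a2 in 14 libraries, Slc11a2 above Tfrc in 15, Tfrc above Cp in 9, and Cp above Slc40a1 in 13. Tfrc and Cp changed places when CPM was divided by effective length.

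None of the 8 members passed the test between lemborexant and vehicle. In edgeR's quasi-likelihood fit over all genes, 0 of 8 were called at an adjusted p under 0.05, where 498 of 19105 genes (2.61%) were, 182 of them (0.953%) higher and 316 (1.65%) lower. On log2(TPM + 1) with limma the split was 88 higher and 30 lower of 118, and the median log2 change of all genes was 0.18. At an unadjusted p under 0.05, 1 member (Cp) stood against 25.7% of all genes. DESeq2 called 0 members, limma's voom 1 (Cp), and limma on log2 TPM 0. The estimates ran from -0.33 for Fth1 to 0.68 for Cp on the log2 scale, with a median of 0.03 over the members and 0.03 over all genes tested.

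**Figure D1:**
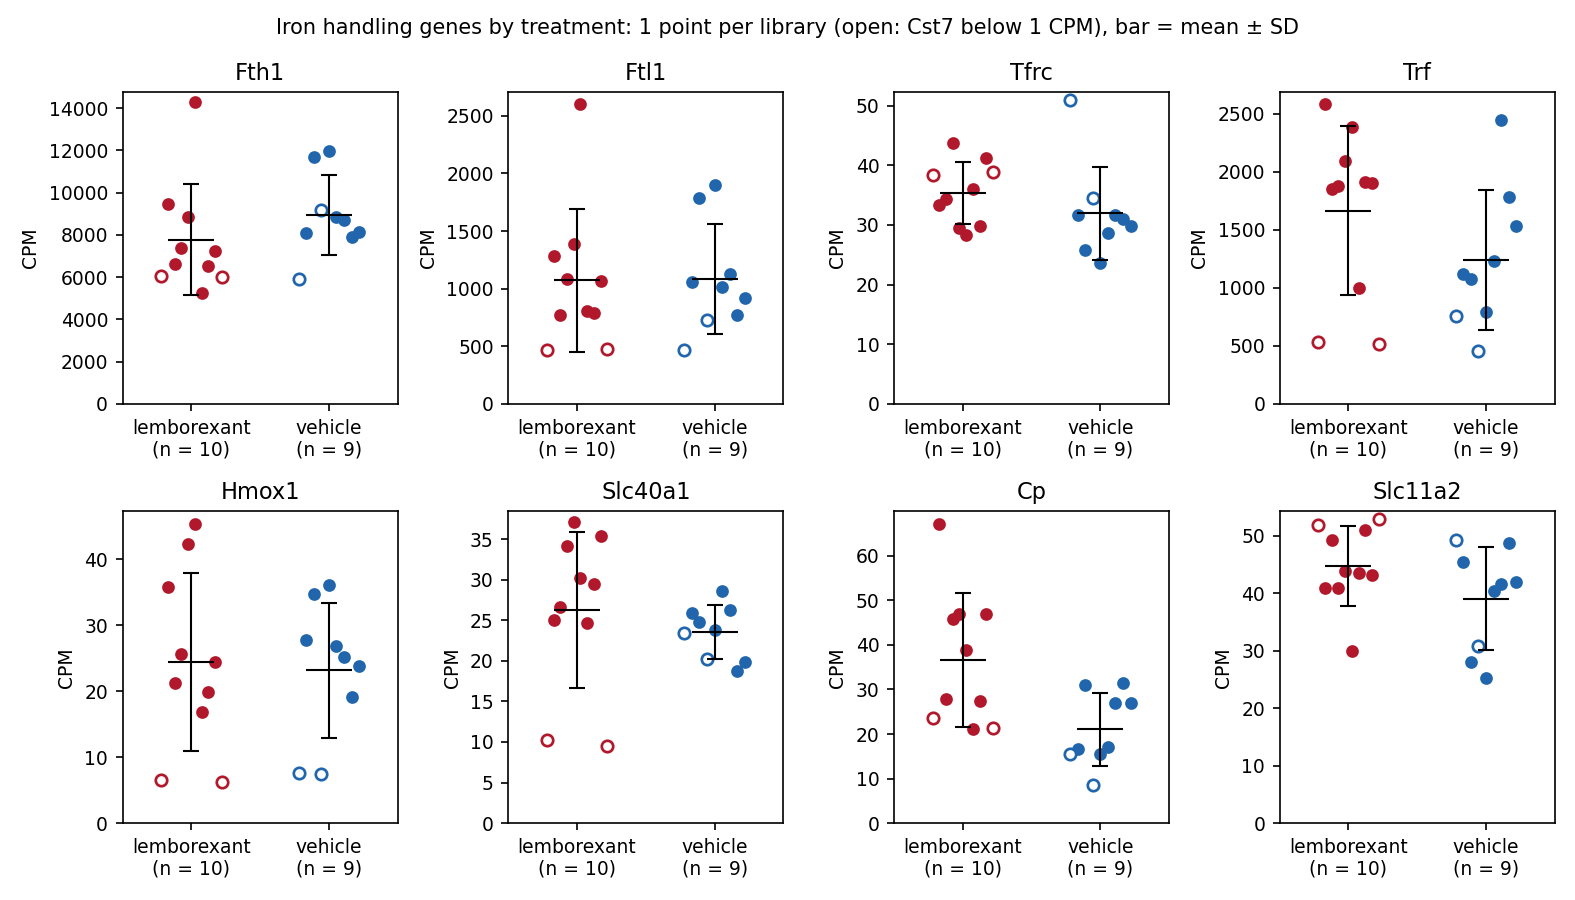
CPM of each member in every library (points; open where Cst7 is below 1 CPM), with lemborexant (n = 10) left of vehicle (n = 9); bars are mean ± SD. The groups overlap for all 8 genes, and Cp has 5 lemborexant libraries above the highest vehicle library at 31.5 CPM.

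Of the storage genes, Fth1 (chr19:9980598-9985098) had a lowest, median and highest level of 5269, 6932 and 14310.5 CPM in lemborexant libraries, against 5922, 8729 and 11992 CPM in vehicle libraries. The groups overlapped, but 7 of 10 lemborexant libraries lay below every vehicle library except vehicle 1, and 6 of these 7 belong to the nearly alike pairs. The log2 change was -0.33 ± 0.20 (SE), a 95% interval of -0.73 to 0.06, with an edgeR adjusted p of 0.298. It was -0.24 with the pairs summed and -0.51 ± 0.16 (edgeR adjusted p 0.0583) without lemborexant 6. On log2(TPM + 1) it was -0.14, but there the median of all genes was 0.18, against 0.03 in the main fit. Ftl1 (chr7:45457944-45459884), the light chain that helps iron settle in the core, had 467, 937 and 2600 CPM with lemborexant, against 470, 1016 and 1904 CPM with vehicle. These ranges nearly coincided at the low end, and the log2 change of -0.15 ± 0.32 (edgeR adjusted p 0.795) turned to 0.01 with the pairs summed. Lemborexant 6 held the highest level of both chains.

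A copy of the light chain gene, Ftl1-ps1 on chromosome 13, carried a median of 88.2 CPM, 8.68% of the Ftl1 level, and its Spearman correlation with Ftl1 over 16 units was 0.997. Reads of near-identical copies can be divided between them, so the Ftl1 level is uncertain by that share. Fth-ps2, the Fth1 copy with the most reads, carried 0.0102% of the Fth1 level.

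Of the uptake genes, Tfrc (chr16:32608920-32632794) had 28.3, 35.2 and 43.8 CPM in lemborexant libraries, against 23.7, 31.0 and 50.9 CPM in vehicle libraries. All lemborexant values lay inside the vehicle range, whose top was vehicle 1, and the log2 change was 0.02 ± 0.11 (edgeR adjusted p 0.922; 95% interval -0.19 to 0.24). Trf (chr9:103204001-103230444) had 514, 1886 and 2579 CPM with lemborexant, against 456, 1114 and 2442 CPM with vehicle. Most lemborexant libraries sat between 1854 and 2579 CPM, with lemborexant 1, 7 and 10 at 514 to 995 CPM, while the vehicle libraries were spread over their range. The vehicle top was vehicle 7, the library with hepatocyte transcripts, and the next vehicle value was 1779 CPM in vehicle 8. The part of liver RNA in the Trf level of vehicle 7 was not tested. The log2 change of Trf was 0.33 ± 0.31 (edgeR adjusted p 0.521), and 0.58 ± 0.31 (adjusted p 0.265) without lemborexant 7 and vehicle 7. Leaving out 1 library in turn gave 0.22 to 0.50, the highest without vehicle 7 (edgeR adjusted p 0.310). Slc11a2 (chr15:100387898-100425072) had 30.0, 43.8 and 52.9 CPM with lemborexant, against 25.2, 41.7 and 49.3 CPM with vehicle, a log2 change of 0.08 ± 0.11 (edgeR adjusted p 0.644; 95% interval -0.13 to 0.30).

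Of the export genes, Slc40a1 (chr1:45908068-45926523) had 9.55, 28 and 37.0 CPM in lemborexant libraries, against 18.8, 23.8 and 28.6 CPM in vehicle libraries. The lemborexant libraries reached past the vehicle range on both sides, with 5 above it and the pair lemborexant 1 and 10 below it, and the log2 change was 0.03 ± 0.21 (edgeR adjusted p 0.947). Cp (chr3:19957054-20009145) had 21.1, 33.3 and 67.1 CPM with lemborexant, against 8.51, 17.1 and 31.5 CPM with vehicle. Lemborexant 2, 4, 5, 6 and 9 exceeded all 9 vehicle libraries, 4 and 9 being a nearly alike pair, and the other 5 lay within the vehicle range. Mean Cp was 36.7 ± 15.0 CPM with lemborexant (SD, n = 10) and 21.1 ± 8.13 CPM with vehicle (SD, n = 9), 1.60-fold in the edgeR fit.

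The Cp log2 change was 0.68 ± 0.25 (95% interval 0.20 to 1.16), with an edgeR p of 0.0116 and an adjusted p of 0.102, so it did not pass the threshold. The adjusted p was 0.0542 with DESeq2, 0.0238 with voom and 0.144 in edgeR with the pairs summed. By library number range, the value was 0.90 ± 0.29 in libraries numbered 1064 to 1602 (7 against 7) and 0.09 ± 0.32 in those numbered 859 to 933 (3 against 2); this difference was not tested. All 3 lemborexant libraries of the second range are nearly alike partners of libraries in the first, so the ranges may not hold separate lemborexant samples. Cp overlaps Hps3, a gene of lysosome-related organelles on the opposite strand with a median of 13.6 CPM, and no source used here states whether counting used strand; some Cp reads may belong to Hps3.

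Hmox1 (chr8:75093621-75100589), the heme-degrading enzyme, had 6.18, 22.8 and 45.4 CPM in lemborexant libraries, against 7.46, 25.2 and 36.1 CPM in vehicle libraries. Both groups held a pair of libraries far below the rest, lemborexant 1 and 10 and vehicle 1 and 4. The log2 change was -0.05 ± 0.37 (edgeR adjusted p 0.946), and its 95% interval, -0.78 to 0.68, was the widest of the members.

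**Figure D2:**
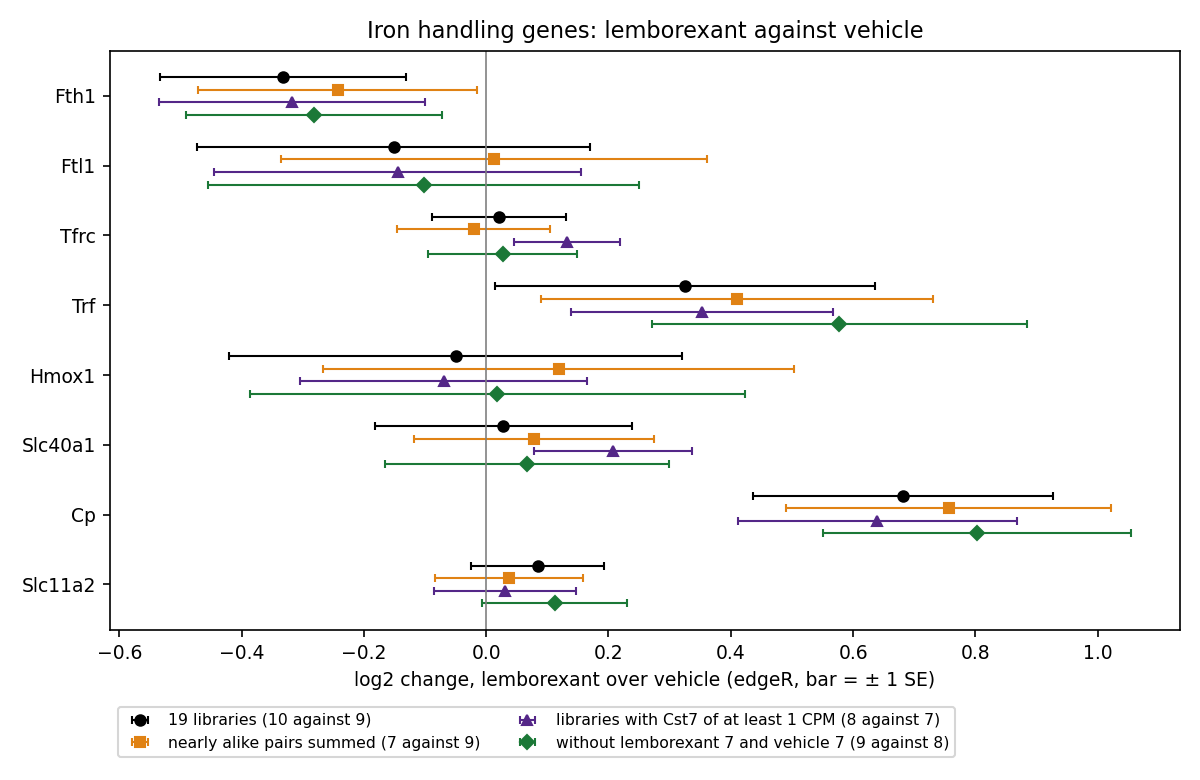
Log2 change of each member, lemborexant over vehicle, from edgeR with bars of ± 1 SE, for all 19 libraries and for 3 sets that sum or leave out libraries. Cp stays between 0.64 and 0.80, and Ftl1, Tfrc and Hmox1 lie on both sides of 0.

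Markers of other cells and regions varied beside Cp and Trf. The 7 macrophage markers summed to 12.1 to 59.4 CPM (median 29.5) in lemborexant libraries, against 5.85 to 20.3 CPM (median 11.1) in vehicle libraries, with none of the 7 at 0 in all libraries. All 7 had a log2 change above 0 and 2 were called in edgeR (0.953% of all genes were called higher): F13a1, a transglutaminase subunit (1.52 ± 0.35, adjusted p 0.0320), and Mrc1, the mannose receptor (1.41 ± 0.35, adjusted p 0.0364). With the pairs summed neither was called, as no gene was (lowest edgeR adjusted p 0.0711, with 4102 genes at an unadjusted p under 0.05). Over 16 units, with each nearly alike pair averaged, the Spearman correlation of Cp was 0.906 with the macrophage sum, 0.826 with the endothelial sum and 0.818 with the oligodendrocyte sum. The 12 oligodendrocyte markers summed to 4936 to 14604 CPM (median 11194) with lemborexant, against 4852 to 11590.0 CPM (median 8114) with vehicle, and 12 of 12 had a log2 change above 0, none of them called in edgeR. Trf followed that sum with a correlation of 0.90. Choroid plexus markers, 12 of 12 with a log2 change above 0, had 0.715 with Trf and 0.641 with Cp. Meningeal fibroblast markers, 8 of 9 above 0 and 0 called, had 0.491 with Trf and 0.641 with Cp. The meningeal sum had a median of 258 CPM for lemborexant and 141 CPM for vehicle. Thalamic and hypothalamic markers, 7 of 7 above 0 and 5 called higher, had 0.606 with Trf and 0.612 with Cp. Their sum was 2852 CPM in lemborexant 7 and at most 316 CPM elsewhere, with medians of 143 CPM for lemborexant and 75.5 CPM for vehicle. Whether the 5 calls hold without lemborexant 7 is not given here. Hippocampus markers, 0 of 9 above 0 and 1 called lower, had -0.656 with Trf and -0.668 with Cp. These points share library and depth, and the part of these cells and regions in the Cp and Trf values was not tested.

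**Figure D3:**
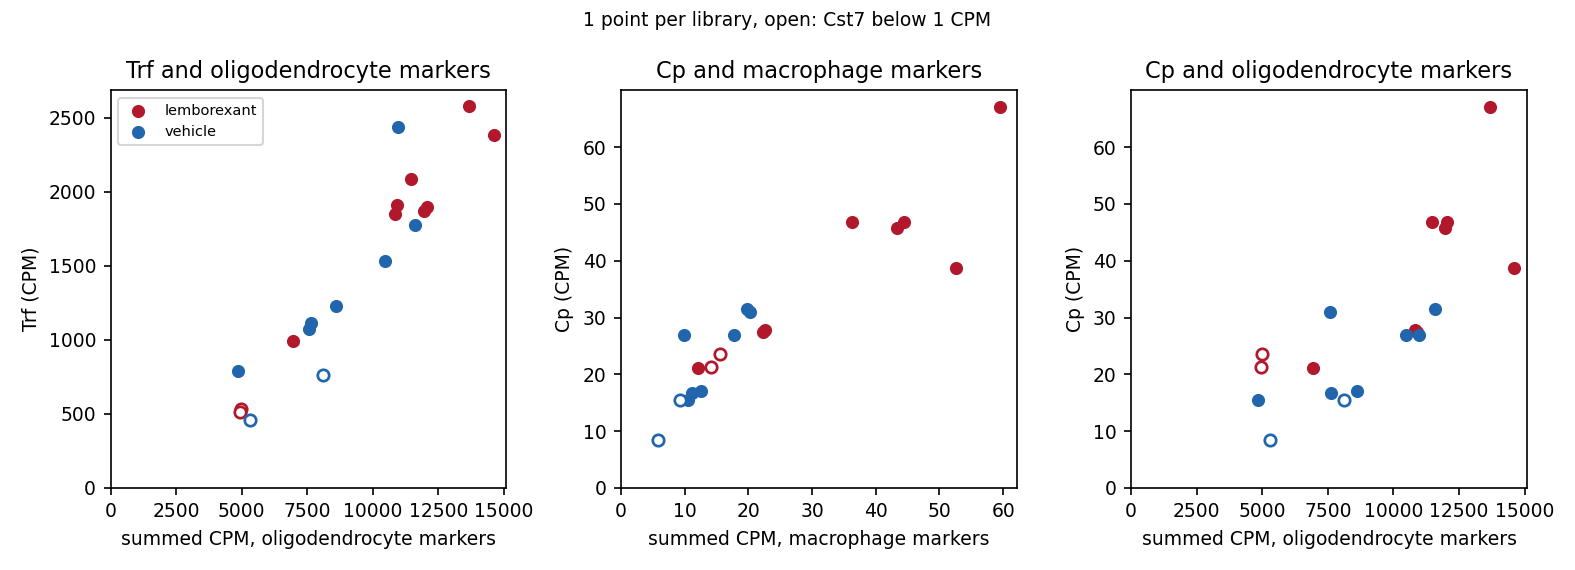
CPM of Trf or Cp against the summed CPM of a marker list, 1 point per library (red lemborexant, blue vehicle, open where Cst7 is below 1 CPM). Trf climbs with the oligodendrocyte sum in both groups, and the 5 highest Cp values are the 5 libraries with over 36 CPM of macrophage markers.

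The wider iron pathway was read from 5 further lists with 90 genes, of which 84 were tested. In edgeR, 0 were called higher and 2 lower (background 0.953% and 1.65%), with a median log2 change of -0.015 against 0.03 over all genes. Slc22a17, a receptor for the siderophore carrier lipocalin 2, ran from 196 to 306 CPM (median 228) in lemborexant libraries, against 250 to 322 CPM (median 269) in vehicle libraries, and fell by 0.34 ± 0.09 on the log2 scale (edgeR adjusted p 0.0385). Its groups overlapped. With the pairs summed its edgeR adjusted p was 0.113. On log2(TPM + 1) its change was -0.10, where the median of all genes was 0.18. Hpx, the heme scavenger hemopexin made by liver, was called lower (-3.48 ± 0.89, adjusted p 0.0434) through 1 library. The lemborexant libraries had 0.275 to 0.727 CPM, against 40.9 CPM in vehicle 7, the library with liver transcripts, and 0.248 to 2.22 CPM in the other vehicle libraries. Without vehicle 7 its change was -0.84 ± 0.38 (adjusted p 0.179).

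In the list of iron-sulfur cluster assembly, 17 of 18 genes had a log2 change below 0 (8867 of 19105 over all genes), with a median of -0.25. In edgeR 0 passed the adjusted threshold, while 7 had an unadjusted p under 0.05 (25.7% over all genes). The smallest p values were those of Isca1 (-0.30 ± 0.09, adjusted p 0.0668) and the scaffold Iscu (-0.62 ± 0.20, adjusted p 0.0751). No gene was called in the other 3 lists in edgeR. An unadjusted p under 0.05 was held by 5 of 12 genes of iron sensing and ferritin turnover. It was held by 2 of 14 of heme synthesis and breakdown and 3 of 14 of ferroptosis and NRF2 targets, against 25.7% over all genes. Of the smallest p per list, Ppox of heme synthesis had a log2 change of 0.21 ± 0.06 (edgeR adjusted p 0.0571) and Hmox2, the constitutive heme oxygenase, -0.18 ± 0.09 (0.194). Ireb2, which encodes iron regulatory protein 2, was at 0.20 ± 0.06 (0.0725), and Tmprss6, a protease of hepcidin control, at -1.55 ± 0.52 (0.0843). Keap1, the inhibitor of NRF2, was at -0.16 ± 0.07 (0.167) and the cystine carrier Slc7a11 at 0.48 ± 0.22 (0.179).

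The libraries were also set side by side by Cst7, the gene of cystatin F, a lysosomal protease inhibitor known in mice from microglia near amyloid plaques. The 15 libraries with at least 1 CPM (8 lemborexant, 7 vehicle) are called Cst7-positive here, and the 4 below 1 CPM (lemborexant 1 and 10, vehicle 1 and 4) Cst7-low. The threshold fell in a wide gap: the lowest Cst7-positive library had 17.0 CPM of Cst7 and the highest Cst7-low one 0.259 CPM. The sides come from a measured gene and are not groups of the study, so their values are a description with no test.

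3 of the 8 members had ranges that did not meet, all higher in Cst7-positive libraries, where 7.02% of 19104 genes were higher and 1.06% lower in this way, 8.08% in all (6.28% and 2.29% on CPM scaled with TMM factors). Hmox1 was at 16.9, 25.6 and 45.4 CPM (lowest, median and highest) in Cst7-positive libraries, against 6.18, 7.01 and 7.58 CPM in Cst7-low libraries, a ratio of medians of 3.65. Trf was at 790, 1854 and 2579 CPM in Cst7-positive libraries, against 456, 523 and 761 CPM in Cst7-low libraries, a ratio of 3.55. Ftl1 was at 769, 1065 and 2600 CPM in Cst7-positive libraries, against 467, 472 and 728 CPM in Cst7-low libraries, a ratio of 2.25. With TMM factors Hmox1 and Trf stayed apart, and the Ftl1 ranges met through vehicle 4 at 849 CPM.

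The other 5 members overlapped. Fth1 was at 5269, 8133 and 14310.5 CPM in Cst7-positive libraries, against 5922, 6027 and 9164 CPM in Cst7-low libraries, a ratio of 1.35. Vehicle 4 alone set that upper end, the 3 other Cst7-low libraries lying at 5922 to 6048 CPM. The ratio was 1.73 for Slc40a1 (1.28 with pairs averaged) and 1.51 for Cp. It was 0.802 for Tfrc, with 12 of 15 Cst7-positive libraries below all 4 Cst7-low ones, and 0.828 for Slc11a2, with 3 of 15 below.

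The ratio of the ferritin transcripts differed between the sides. There were 5.5 to 10.2 Fth1 reads per Ftl1 read in Cst7-positive libraries (median 7.39), against 12.6 to 12.9 in Cst7-low libraries (median 12.6). The ranges did not meet, but how often ratios of other genes separate in this way is not given here. Lemborexant 1 and 10, on the Cst7-low side, are a nearly alike pair. By treatment the same ratio overlapped, at 5.5 to 12.9 with lemborexant and 6.30 to 12.6 with vehicle.

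Cell markers differed on the same line. Microglia markers summed to 1471 to 4216 CPM in Cst7-positive libraries, against 505 to 705 CPM in Cst7-low libraries, with separate ranges for 9 of 13. Gliosis-associated microglia markers summed to 2138 to 7190 CPM in Cst7-positive libraries, against 715 to 751 CPM in Cst7-low libraries, with separate ranges for 11 of 12. Astrocyte markers summed to 7218 to 12952 CPM in Cst7-positive libraries, against 2441 to 4042 CPM in Cst7-low libraries, with separate ranges for 7 of 10. Neuron markers summed to 3487 to 8090 CPM in Cst7-positive libraries, against 7567 to 9521 CPM in Cst7-low libraries, with 1 of 10 separate and lower. Hippocampus markers summed to 111 to 431 CPM in Cst7-positive libraries, against 443 to 484 CPM in Cst7-low libraries, but 0 of 9 had separate ranges. Over 16 units the hippocampus sum had a rho of -0.644 with Ftl1, -0.571 with Hmox1 and -0.656 with Trf. Oligodendrocyte markers overlapped, at 4852 to 14604 CPM in Cst7-positive and 4936 to 8114 CPM in Cst7-low libraries. None of these markers was at 0 in all libraries, and the part of cell makeup in the iron genes' values was not tested.

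**Figure D4:**
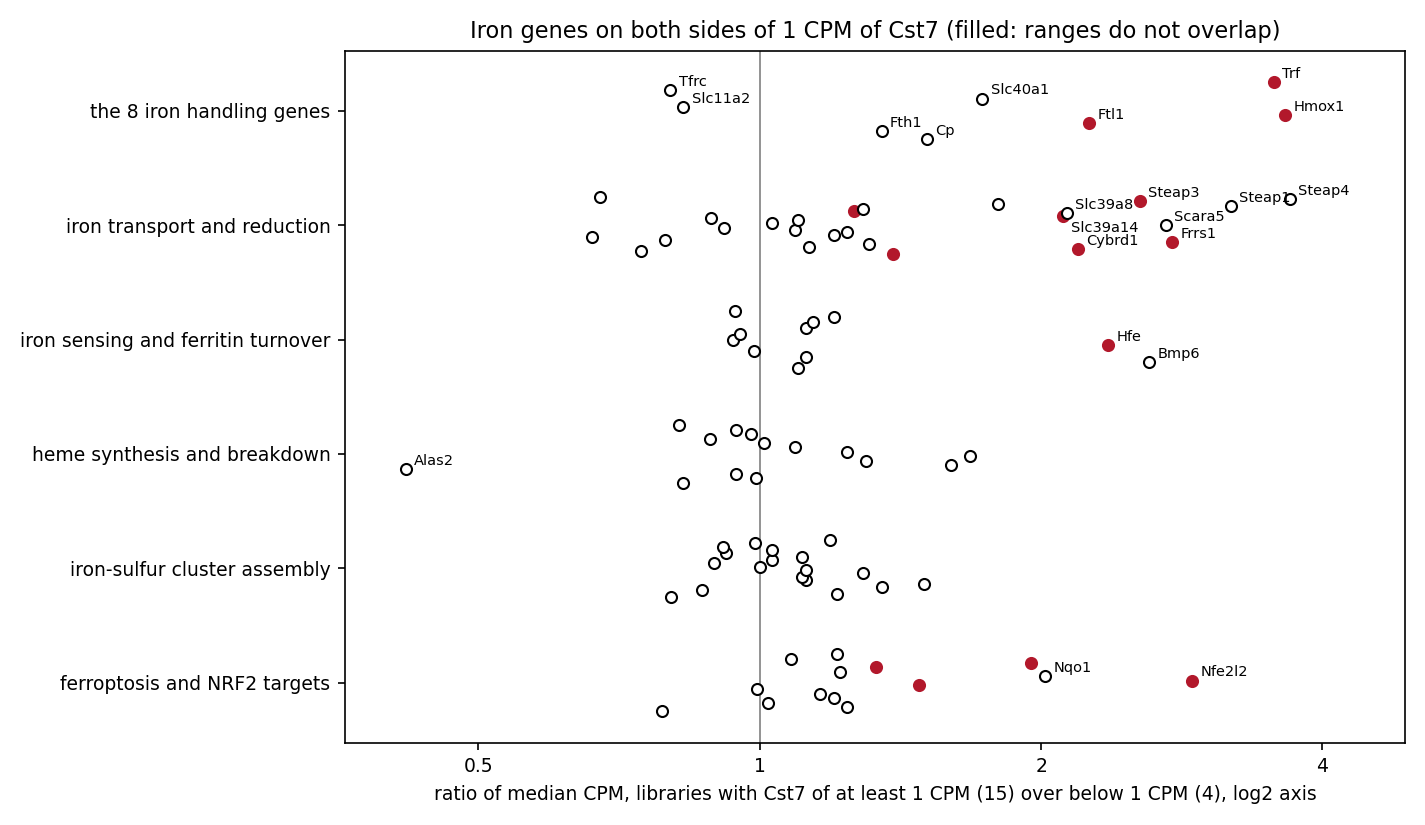
Ratio of median CPM, 15 Cst7-positive over 4 Cst7-low libraries, on a log2 axis, for the 8 members and the 5 further lists (genes with a mean of at least 1 CPM). Filled points are genes whose ranges do not overlap; all of them lie above 1, among them Trf at 3.55 and Hmox1 at 3.65.

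Of the 84 tested pathway genes, 11 had separate ranges, all of them higher in Cst7-positive libraries (7.02% of all genes were separate and higher, 1.06% separate and lower), and the median ratio of the lists was 1.12 against 1 over all genes. The widest ratios per list were as follows. The STEAP family genes Steap4 (3.69) and Steap1 (3.19) overlapped between the sides, as did Bmp6 (2.61), an inducer of hepcidin, while Hfe (2.36), a hemochromatosis gene, was separate at 13.9 to 31.8 CPM in Cst7-positive libraries, against 4.71 to 8.28 CPM in Cst7-low libraries. Alas2 (0.418), of heme synthesis in red cells, and the biliverdin reductase Blvrb (1.68) overlapped, and so did Fdxr (1.5) and Fdx1 (1.35) of iron-sulfur assembly. Nfe2l2 (2.90), the gene of the transcription factor NRF2, was separate at 44.2 to 98.1 CPM in Cst7-positive libraries, against 18.3 to 25.2 CPM in Cst7-low libraries, and its target Nqo1 (2.02) overlapped.

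Within the Cst7-positive libraries the storage genes and Hmox1 followed Cst7 in a graded way. The relation was taken over 13 units, each nearly alike pair averaged, as a correlation on log2 CPM with permutation p-values adjusted over 19104 genes. Both this relation and the members were chosen with results of these data known, so the p-values are not independent support. Of the 8 members, 5 were called, where 7.92% of all genes were positive and 16% negative (24% in either direction). With TMM factors these shares were 12.9%, 7.97% and 20.8%. Hmox1 had a Spearman rho of 0.923 and a Pearson r of 0.906 (permutation p 2e-05 and 4e-05, adjusted 0.00183 and 0.00434), and 0.43 log2 units per doubling of Cst7. Ftl1 had 0.912 and 0.898 (permutation p 4e-05 and 6e-05, adjusted 0.00243 and 0.00509), with 0.53 log2 units per doubling. Fth1 had 0.885 and 0.851 (permutation p 8e-05 and 0.00021, adjusted 0.00345 and 0.00806), with 0.35 log2 units per doubling.

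The Pearson r of these 3 genes was 0.889 to 0.919 without the 2 units farthest from the median Cst7, and 0.879 to 0.888 within the libraries numbered 1064 to 1602 (11 units; the other number range holds too few units). By treatment it was 0.944 for Hmox1, 0.919 for Ftl1 and 0.869 for Fth1 in the 6 lemborexant units, and 0.989, 0.928 and 0.839 in the same order in the 7 vehicle units. The difference of slopes on Cst7 between the treatments passed for none of these 3 genes (edgeR, lemborexant minus vehicle, 0.03 ± 0.11, -0.08 ± 0.16 and 0.06 ± 0.15 in the same order, adjusted p 0.846 to 0.908).

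**Figure D5:**
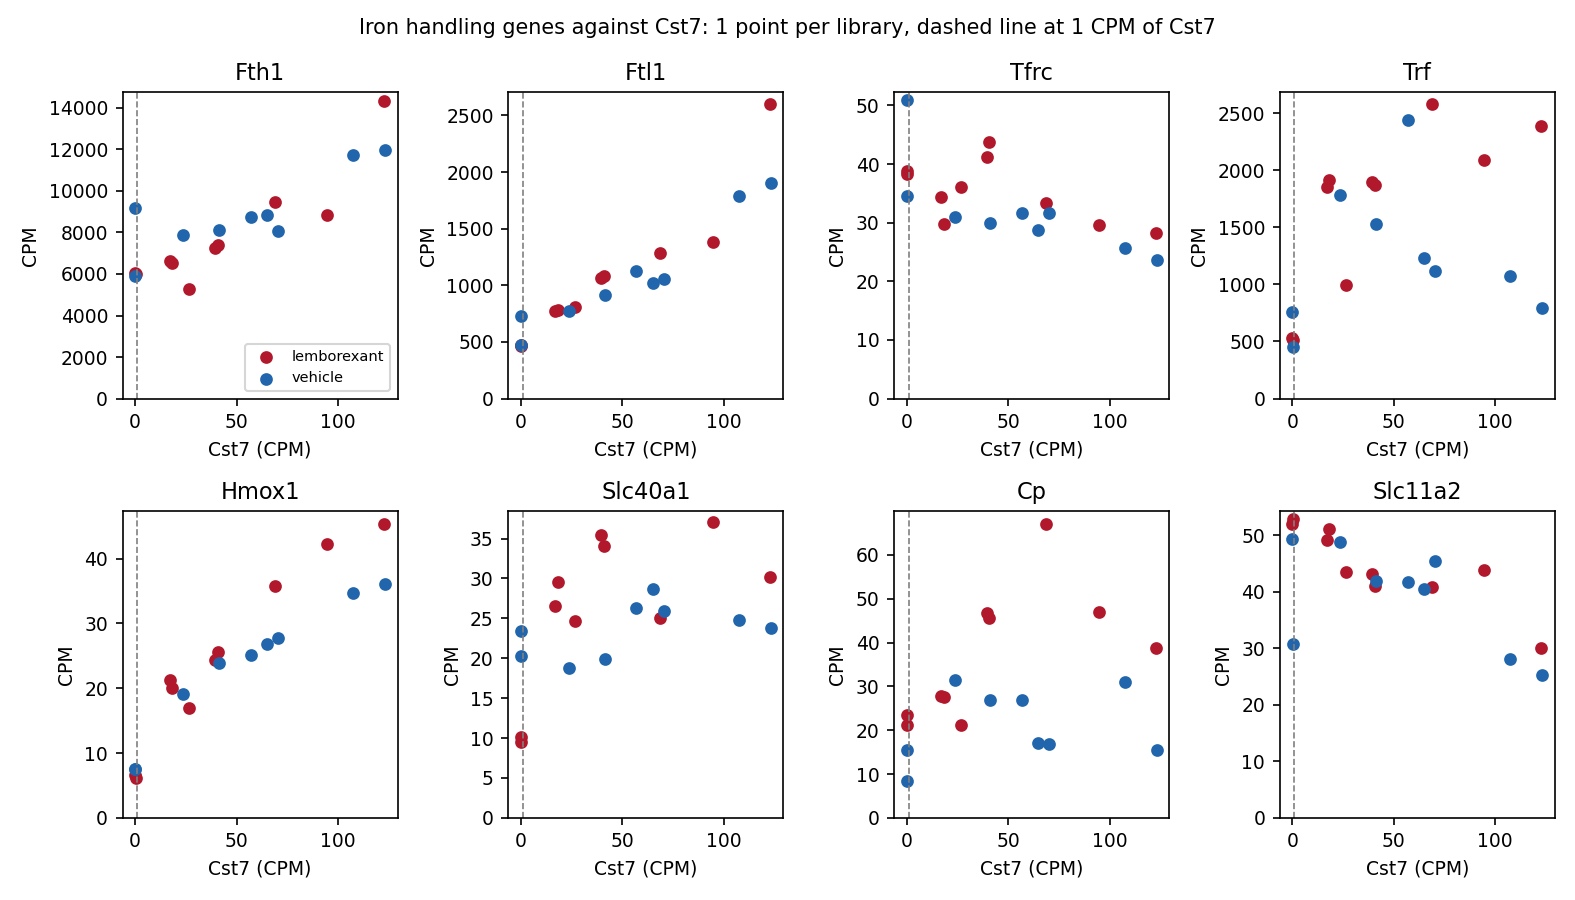
CPM of each member against CPM of Cst7, 1 point per library, with a dashed line at 1 CPM of Cst7. Fth1, Ftl1 and Hmox1 climb with Cst7 to their highest values at 123 CPM of Cst7. Trf and Cp show no pooled relation among the Cst7-positive libraries, while every Trf value right of the line is above those left of it. Lemborexant is red and vehicle blue.

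The uptake genes Tfrc and Slc11a2 had the opposite sign, and their call depended on the scaling. Tfrc had a rho of -0.725 and an r of -0.602 (permutation p 0.00651 and 0.0269, adjusted 0.0345 and 0.0835), and Slc11a2 a rho of -0.725 and an r of -0.773 (permutation p 0.00673 and 0.00193, adjusted 0.0351 and 0.0191). With TMM factors, which themselves correlated with Cst7 (rho -0.758), rho was -0.604 for Tfrc and -0.582 for Slc11a2, with adjusted permutation p of 0.102 and 0.119, so neither passed. Hmox1, Ftl1 and Fth1 kept a rho of 0.951, 0.940 and 0.912 on that scale, with adjusted permutation p of 0.0021 or less. Without the 2 farthest units r was -0.769 for Tfrc and -0.704 for Slc11a2. There rho was -0.836 for Tfrc and -0.545 for Slc11a2, with unadjusted permutation p of 0.00225 and 0.0879. Slc40a1 (rho 0.159, adjusted permutation p 0.722) and Cp (rho -0.060, 0.904) showed no relation to Cst7 that passed.

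Within the Cst7-positive libraries Trf had no pooled relation to Cst7 (rho -0.099, adjusted permutation p 0.833), and the sign differed between the treatments. Its rho was 0.771 and its r 0.612 in the 6 lemborexant units, and its rho was -0.893 and its r -0.712 in the 7 vehicle units. Cp had 0.543 and 0.636 with lemborexant, against -0.607 and -0.520 with vehicle. The test of the difference of slopes, chosen after these values were seen, gave a lemborexant slope minus vehicle slope of 0.64 ± 0.24 for Trf (edgeR p 0.0210, adjusted p 0.255) and 0.53 ± 0.26 for Cp (edgeR p 0.0681, adjusted p 0.337), so neither difference passed; 1 of 19224 genes (0.0052%) did. Oligodendrocyte markers, which Trf followed, summed to 4852 CPM in vehicle 5, the vehicle library with the most Cst7. In lemborexant 6, the lemborexant library with the most Cst7, they summed to 14604 CPM. The libraries next in Cst7, vehicle 3 and lemborexant 5, had 7565 and 11471 CPM of these markers. These are single libraries, and the part of oligodendrocytes in the slopes was not tested.

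Among themselves, over the same 13 units, the members fell into a few tight pairs. Ftl1 and Hmox1 had a rho of 0.912, Fth1 and Hmox1 0.868, Fth1 and Ftl1 0.846, and Trf and Cp 0.758. Fth1 ran against Slc11a2 (-0.835) and Tfrc (-0.769). Slc40a1 had no rho above 0.500 with any other member. These are descriptions over shared libraries, with 28 pairs computed.

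The genes most like each member were found over 16 units among 11617 protein-coding genes, by Spearman rho of log2 CPM. Nearest to Fth1 were Mcee (0.932), Phf5a (0.926) and Bri3 (0.924), and nearest to Ftl1 were Ftl1-ps1 (0.997), S100a6 (0.988) and Rnaset2b (0.988). Hmox1 lay closest to Plek (0.982), Dapp1 (0.982) and Cd14 (0.979), of which Cd14 is the lipopolysaccharide co-receptor of myeloid cells. Trf lay closest to Cat (0.982), the catalase gene, Tmem98 (0.974) and Pmp22 (0.968), a myelin protein of peripheral nerve. For Cp the nearest were Chrdl1 (0.953), Stat6 (0.938) and Tcn2 (0.935), the carrier of vitamin B12. Tfrc had Btf3l4 (0.950), Tmem97 (0.915) and Nup88 (0.888), Slc11a2 had Ttc17 (0.947), Ranbp6 (0.947) and Selenoi (0.938), and Slc40a1 had Abcd2 (0.853), Arhgap25 (0.847) and Plxdc2 (0.838), the lowest of these likenesses.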

How the data were processed

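Cortical RNA was sequenced in 19 libraries (10 lemborexant, 9 vehicle), grouped by title and treatment label; the series text speaks of triplicates, and the labels were followed. The submitters' processing notes name bcl2fastq, DRAGEN 3.9.3-8 and the GRCm38 build; which annotation release, strand setting and filters were used is not given in the sources used here. Per the file headers, the deposited tables hold 55487 genes, each with an estimated count, an effective length and a TPM value; the authors' program divided shared reads, so an estimated count need not be whole, and counts were rounded for count tests. The deposited TPM values are per gene length and library total. Symbols, positions and UTRs came from GENCODE's GRCm38 annotation, which named 55227 identifiers.

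CPM is the estimated count of a gene scaled to the same total in every library (edgeR's CPM), without TMM factors unless stated. Treatment was tested on all genes with edgeR 4.0.16 (R 4.3.3; quasi-likelihood, robust, TMM, filterByExpr, two-sided); p-values of 19105 genes were adjusted by Benjamini-Hochberg and called under 0.05; the SE is the size of the log2 change divided by the square root of F. The script was tested on simulated data. Depth was at least 20185098 reads per library; low values, such as Hpx or Cst7 in Cst7-low libraries, rest on few reads, so counting error is large there. Correlations with Cst7, chosen after seeing the data, used log2(CPM + 0.5), 100000 permutations (smallest possible p 1e-05) and 13 units; difference of slopes was tested in edgeR as an interaction with log2 Cst7. Levels by Cst7 side were described with no test.

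The members and lists were chosen with earlier results of these data known. Named beside the members are, per list, the genes past the threshold or else the 2 of smallest p; the 2 of widest Cst7-side ratio with a mean of at least 1 CPM; and the 3 protein-coding genes most like each member with a mean of at least 5 CPM. Alternatives were DESeq2 1.42.0, RLE factors in edgeR, no expression filter, limma 3.58.1's voom with quality weights, limma on log2(TPM + 1) with and without a filter at a mean of 1 TPM and on log2(TPM + 0.1), the library number range as a covariate or each range alone, each library left out, nearly alike pairs summed, fits without Cst7-low libraries or without lemborexant 7 and vehicle 7, and a threshold of 0.1. Added after seeing the data were summed pairs without Cst7-low libraries and the other settings of the Cst7 correlation. The tables' effective lengths served only for the order of levels.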

Additional observations from a re-analysis of the deposited data

Results flagged for a closer look

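In 16 groups searched (8 genes in each treatment), 4 held a library far from the others by Dixon's criterion. For independent, normally spread values the criterion is met in about 1 in 20. These groups share libraries and correlated genes, and the lemborexant groups hold nearly alike pairs, so 4 of 16 cannot be set against that rate. Lemborexant 6 had the highest Fth1 (14310.5 CPM) and Ftl1 (2600 CPM) and the lowest Slc11a2 (30.0 CPM) of its group. Vehicle 1 had the highest Tfrc of its group, at 50.9 CPM. Lemborexant 6 was also the lemborexant library with the most Cst7, at 123 CPM, and vehicle 1 was the library with none.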

How the results depend on the processing

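Of the 8 members, 0 were called in edgeR and 1 (Cp, 0.72) with voom; no library left out in turn gave a call. The count over all genes (498) was 254 without the expression filter, 1811 with DESeq2, 2217 with voom, 118, 26 and 11 on log2(TPM + 1), log2(TPM + 0.1) and log2(TPM + 1) unfiltered, 294 with the number range as covariate, 8 in libraries 1064 to 1602, 0 in 859 to 933 (lowest edgeR adjusted p 0.378; 910 genes at an unadjusted p under 0.05), 0 with pairs summed, also without Cst7-low libraries, 307 without lemborexant 7 and vehicle 7, and 2137 at a threshold of 0.1. Leaving out a library gave 31 (lemborexant 9) to 1274 (vehicle 8), and 35, 39 and 76 without lemborexant 4, vehicle 4 and vehicle 5. On TPM the median of all genes moved to 0.18 and 0.20.

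The pathway count (2) was 8 with DESeq2, 9 with voom, 1 without lemborexant 7 and vehicle 7, 12 at a threshold of 0.1, and 0 without the filter, on TPM, with the covariate, in either number range or with pairs summed, also without Cst7-low libraries; leaving out a library gave 0 to 8. The members related to Cst7 (5) were 3 with TMM factors.

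Signs of small log2 changes turned: Ftl1 to 0.011 on TPM and 0.013 with pairs summed; Tfrc to -0.038 in libraries 1064 to 1602 and -0.021 with pairs summed; Trf to -0.23 in 859 to 933; Slc40a1 to -0.025 in 1064 to 1602; Hmox1 to 0.11 on TPM, 0.080 in 1064 to 1602, 0.12 with pairs summed, 0.036 also without Cst7-low libraries, and 0.018 without lemborexant 7 and vehicle 7; Slc11a2 to -0.0018 with pairs summed and without Cst7-low libraries. Leaving out a library, Ftl1 ran from -0.44 to 0.019, Tfrc from -0.012 to 0.11, Hmox1 from -0.23 to 0.082 and Slc40a1 from -0.047 to 0.13. The Spearman correlation with Cst7 turned to -0.145 for Slc40a1 in 1064 to 1602 and to 0.033 for Cp with TMM factors, and was -0.545 for Slc11a2 without the 2 farthest units. The causes were not tested. No paired analysis was possible because the labels give library numbers and no replicate number shared between the groups.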
